A study of Mus musculus with 33 samples.

Results

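The 43 genes described here encode the machinery of DNA replication and S phase, and all 43 were found by gene symbol among the 17120 genes of the count table. Their levels were followed by bulk RNA-seq while paraxial mesoderm (PM), the embryonic tissue from which axial tendons arise, was turned into tendon or fibrocartilage cells in culture. The cells came from mouse embryonic stem cells that carry a ScxGFP reporter of the tendon factor scleraxis, made into embryoid bodies with the BMP inhibitor LDN-193189 and brought to PM at day 6 (D6) with LDN-193189 and the Wnt agonist CHIR. The labels describe the PM libraries as embryoid bodies and the later ones as a monolayer, plated from D6 in TGFβ1, the hedgehog agonist SAG and FGF2, and with 1 of 2 ligands of retinoic acid receptors. CD1530 activates the receptor RARγ and was used for tendon, and AGN 193109 (AGN below, as in the labels) is an inverse agonist and was used for fibrocartilage. Libraries were made at PM and, with each ligand, at induction days 0.25, 0.75, 1.5, 2.5 and 4, named here by culture day (D6.25 through D10), with 3 libraries in each of the 11 groups. The study's refined protocol also adds a retinoid ligand during the PM phase, and the labels do not say whether the PM libraries received it. The study describes the 3 libraries of a group as biological replicates, with no sort of the cells described for them, and the labels do not give the stem cell line behind each library. Total counts were 17116084 to 22775275 per library, apart from AGN D8.5 replicate 1 at 38120841, and the lowest count of any of the 43 genes in any library was 101. Levels below are CPM, that is counts scaled with TMM factors to a common library total, given for the 3 libraries of a group, and the tests are edgeR quasi-likelihood tests adjusted over all 17120 genes, with a gene called at an adjusted p under 0.05. Log2 fold changes are given ± SE, and those between conditions are CD1530 over AGN, so that a negative value is lower in CD1530.

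Replication starts when the origin recognition complex (Orc1, Orc6), Cdc6 and Cdt1 load rings of the Mcm2 to Mcm7 helicase onto DNA in G1. Cyclin E (Ccne1, Ccne2) with its kinase and the transcription factor E2f1 drive the passage into S phase, where Mcm10, Cdc45 and the GINS complex (Gins1 to Gins4) turn the loaded rings into active helicases. Primase and the polymerases then copy the strands behind the clamp Pcna, its loader (the subunits Rfc2 to Rfc5 are among the 43, the large subunit Rfc1 is not) and the single-strand binding complex (Rpa1, Rpa2), while other enzymes supply nucleotides and rebuild chromatin. Many of these genes are textbook targets of E2F factors, their mRNA is high in cycling progenitors, and cells that leave the cycle to differentiate lose it. In bulk RNA, fewer cells in S phase and less of these mRNAs per cell cannot be told apart.

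The promoters are shown first because these genes are known as a class for their E2F sites. RefSeq gave 39 promoters for 35 of the 43 genes on GRCm38.p6, each 300 bases long, from 250 bases before the annotated start to 50 after it. Genes without an entry were Mcm4, Gins1, Gins2, Gins4, Pole, Rfc2, Tipin and Ccne2. E2F letters, searched as TTTCCCGC, TTTGGCGC, TTTCGCGC or TTTGCCGC on both strands, occurred in 13 of the 39 (33.3%, exact 95% interval 19.1 to 50.2%) and in 2.26% of all 32851 promoters of the same length. The genes that held them were Orc1, Cdc6, Cdt1, Mcm3, Mcm5, Mcm6, Mcm7, Gins3, Pola1, Pold1, Rfc3, Lig1 and Msh6. The CCAAT box, searched as CCAAT, occurred in 22 of the 39 (56.4%, interval 39.6 to 72.2%, against 37.4% of all promoters), and the GC box, searched as GGGCGG, in 29 (74.4%, 57.9 to 87.0%, against 35.7%). TTTGAA, the core of the cell cycle element of mitotic genes, occurred in 4 (10.3%, 2.87 to 24.2%, against 17.9%), those of Mcm2, Cdc45, Gins3 and Fen1. Intervals cover counting error only, several genes have more than 1 listed start, the E2F letters can overlap each other on opposite strands, and a match is a description and not a shown site.

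Printed 5′ to 3′ are the promoters of the genes that differed most between conditions at D10, Dut above and Chaf1b, Tk1 and Mcm10 below in CD1530, and of the clamp Pcna and the helicase subunit Mcm5, with E2F letters, CCAAT boxes and GC boxes of either strand in capitals.
Dut, chr2:125247265-125247564, plus strand: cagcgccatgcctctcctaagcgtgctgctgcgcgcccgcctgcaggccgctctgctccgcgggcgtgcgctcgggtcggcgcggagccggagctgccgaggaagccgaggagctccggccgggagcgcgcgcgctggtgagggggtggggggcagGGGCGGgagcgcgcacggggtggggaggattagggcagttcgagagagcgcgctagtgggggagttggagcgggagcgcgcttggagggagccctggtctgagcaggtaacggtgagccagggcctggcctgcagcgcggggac
Chaf1b, chr16:93883651-93883950, plus strand: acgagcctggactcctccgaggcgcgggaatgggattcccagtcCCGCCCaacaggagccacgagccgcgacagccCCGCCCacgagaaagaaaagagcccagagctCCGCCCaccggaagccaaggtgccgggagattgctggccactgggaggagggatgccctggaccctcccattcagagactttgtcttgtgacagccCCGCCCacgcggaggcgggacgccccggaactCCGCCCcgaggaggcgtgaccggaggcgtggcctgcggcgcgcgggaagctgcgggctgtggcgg
Tk1, chr11:117825965-117826264, minus strand: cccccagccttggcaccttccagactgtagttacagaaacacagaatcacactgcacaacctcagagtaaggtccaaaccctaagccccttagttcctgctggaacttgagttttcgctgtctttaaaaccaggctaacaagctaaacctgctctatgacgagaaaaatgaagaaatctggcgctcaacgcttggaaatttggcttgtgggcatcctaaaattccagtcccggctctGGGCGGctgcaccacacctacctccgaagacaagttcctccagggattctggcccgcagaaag
Mcm10, chr2:5012742-5013041, minus strand: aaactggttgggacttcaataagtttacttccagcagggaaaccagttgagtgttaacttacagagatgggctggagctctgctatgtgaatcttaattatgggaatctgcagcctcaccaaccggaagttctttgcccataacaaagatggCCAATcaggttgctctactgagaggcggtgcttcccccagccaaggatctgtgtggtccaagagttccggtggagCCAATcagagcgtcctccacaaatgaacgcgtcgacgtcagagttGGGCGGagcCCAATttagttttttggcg
Pcna, chr2:132253131-132253430, minus strand: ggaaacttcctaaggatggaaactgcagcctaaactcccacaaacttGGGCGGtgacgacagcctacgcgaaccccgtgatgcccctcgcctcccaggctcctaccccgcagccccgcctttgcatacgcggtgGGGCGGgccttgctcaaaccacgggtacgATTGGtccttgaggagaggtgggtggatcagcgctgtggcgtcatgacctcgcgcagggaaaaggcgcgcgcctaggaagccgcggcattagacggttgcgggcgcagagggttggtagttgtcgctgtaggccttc
Mcm5, chr8:75109259-75109558, plus strand: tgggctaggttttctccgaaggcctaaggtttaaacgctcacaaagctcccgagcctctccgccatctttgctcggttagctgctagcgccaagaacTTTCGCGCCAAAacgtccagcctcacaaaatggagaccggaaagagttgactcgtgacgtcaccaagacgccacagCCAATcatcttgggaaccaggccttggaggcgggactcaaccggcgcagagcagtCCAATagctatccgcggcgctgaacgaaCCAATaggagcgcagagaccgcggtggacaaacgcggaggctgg
Of these windows, that of Mcm5 alone held the 8-letter E2F forms, a pair on opposite strands that overlap, and it also held 3 CCAAT boxes. The 7-letter forms, which are not capitalised, had 2 matches in the Chaf1b window, 3 in that of Mcm5 and 0 in the others. The Chaf1b window held 5 GC boxes, all on the opposite strand, and the windows of Dut and Tk1 held 1 GC box each. The Dut window lies inside the gene as annotated in GENCODE, which starts at 125247190. The bases before that start were therefore not searched.

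Among the 35 genes with a promoter, the 13 with E2F letters had a median log2 fold change from PM to D10 of -1.55 in CD1530 and -1.41 in AGN. The 22 without these forms had medians of -1.11 and -1.02. The ranges of the sets with and without them overlapped, from -2.21 to -0.29 and from -2.62 to 0.12 in CD1530. The 7-letter forms occurred in 21 of the 35 genes, so the set without the 8-letter forms also holds genes with 7-letter matches, such as Chaf1b.

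**Figure D1:**
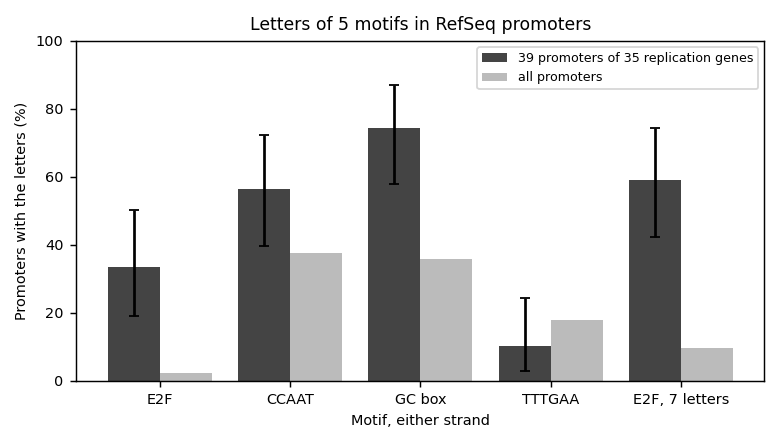
Share of promoters (%) that hold the letters of each motif on either strand, for the 39 promoters of 35 replication genes (dark bars, with exact 95% binomial intervals) and for all 32851 RefSeq promoters (light bars). The E2F letters stand at 33.3% against 2.26%, and 7-letter forms of them at 59.0% against 9.57%.

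Per kilobase of exon, taken as the union of all annotated exons of a gene, the genes spanned a wide range at PM. The order of the genes depends on this length, which need not be that of the transcripts present. Mcm2 has 6956 bases and Mcm3 3752, and before division by length they stood at 528 and 522 CPM at PM. The highest were Msh6 at 157 ± 2.31 CPM per kb (mean ± SD, n = 3), Pcna at 139 ± 5.71, Mcm3 at 139 ± 2.11 and Rrm2 at 136 ± 2.68, and the 6 MCM helicase genes lay between 75.9 for Mcm2 and 139 for Mcm3. The lowest were Gins3 at 4.73 ± 0.27, Ccne2 at 5.25 ± 0.28 and Fen1 at 6.42 ± 0.79 CPM per kb. Pcna, Mcm3 and Rrm2 lay within their spread of each other, and Msh6 lay above them. At D10 Mcm6 was the highest of the 6 in both conditions, at 66.5 ± 0.25 CPM per kb in CD1530 and 75.7 ± 1.82 in AGN, and Mcm2 the lowest, at 30.3 ± 0.37 and 32.6 ± 1.81.

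Nearly all of the 43 genes fell at the first step and again at the last, and changed less between. Summed over the 43 genes, the level was 8534.6 to 8676.8 CPM in the 3 PM libraries, 5412.3 to 5575.4 in CD1530 and 5426.2 to 5471.7 in AGN at D6.25, and 3774.1 to 3797.6 and 3869.7 to 4005.5 at D10. The means at D10 were 43.9% and 45.5% of PM, and the highest level between them, at D7.5, was 70.1% and 72.8%. For 36 of the 43 genes the mean level was highest at PM, and for 25 it was lowest in CD1530 and for 12 in AGN at D10. The exceptions to the PM peak were Tyms and Dut, highest in CD1530 at D8.5, and Gins2, Gins3, Rrm1, Ccne1 and Ccne2, highest in AGN at D8.5.

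**Figure D2:**
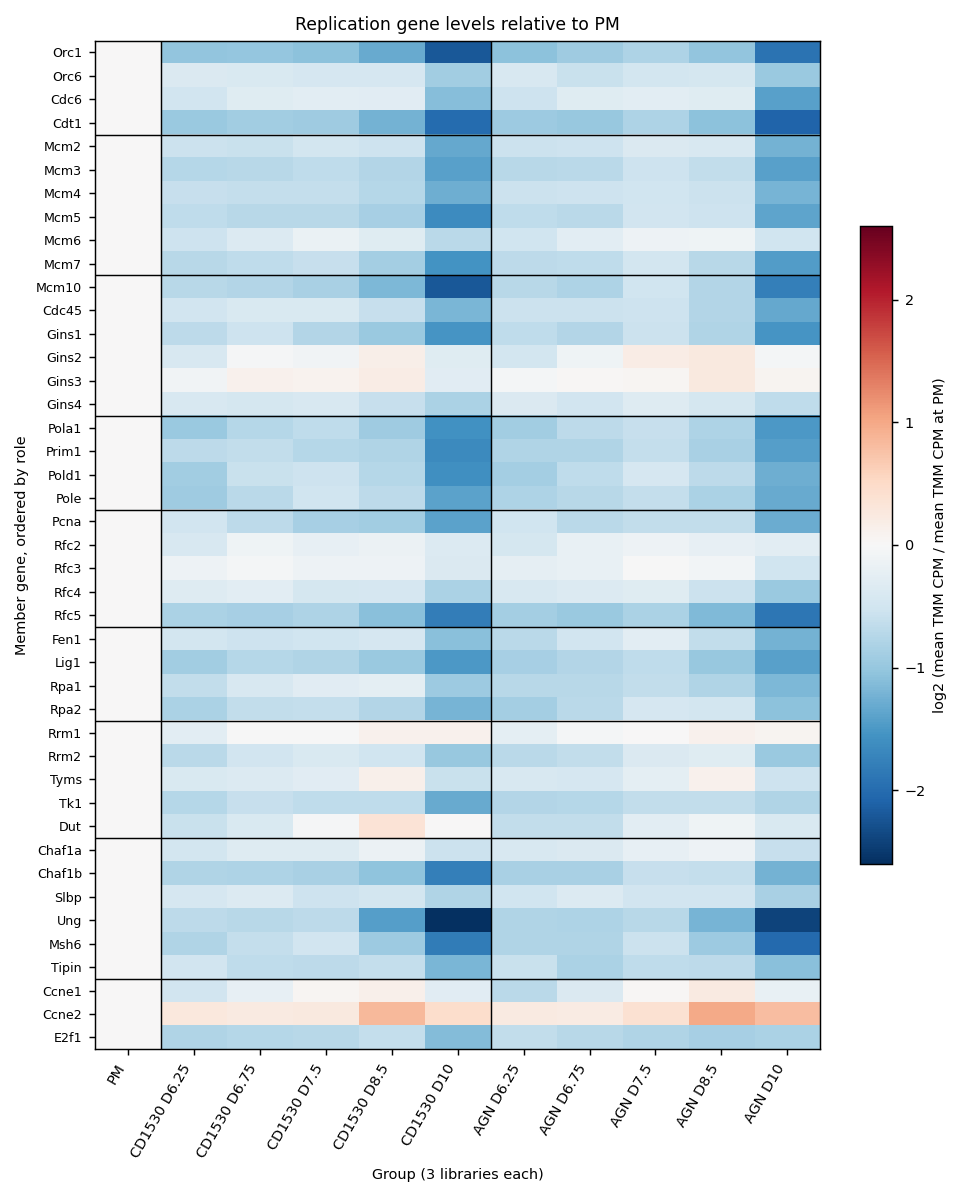
Mean CPM of each of the 43 genes in each group relative to PM, on a log2 scale (blue below PM, red above), with genes in rows ordered by role and the CD1530 and AGN time courses side by side (3 libraries a group). Ung is the darkest blue at D10, at -2.62 in CD1530 in the fit, and Ccne2 is above PM in all 10 groups.

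From PM to D6.25 TGFβ1, SAG, FGF2 and the ligand were added together with the plating that the labels give, so these changes cannot be told apart. In CD1530, 1 of the 43 genes rose (34.5% of all genes did) and 41 fell (33.3%), with a median log2 fold change of -0.60 and a range of -1.02 to 0.28. In AGN, 1 of the 43 genes rose (35.0% of all genes did) and 41 fell (33.1%), with a median of -0.66 and a range of -1.07 to 0.24, and the median over all genes was 0.00 in both. Both comparisons use the same 3 PM libraries. The same 3 genes led the falls: Orc1, which marks origins, at -1.02 and -1.07 in CD1530 and AGN, Pola1, the polymerase that starts each strand, at -0.96 and -0.90, and the loading factor Cdt1 at -0.95 and -0.95 (log2 fold changes). Ccne2, a cyclin E, was the gene that rose, by 0.28 ± 0.08 (SE, adjusted p = 0.00165) in CD1530 and 0.24 ± 0.08 in AGN, where the call was lost without PM replicate 2 (0.17, adjusted p = 0.0818). The gene that passed in neither condition was Gins3, at -0.09 ± 0.08 and -0.06 ± 0.08.

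Part of the summed loss came back between D6.25 and D7.5. The sum went from 63.6% to 70.1% of PM in CD1530 and from 63.2% to 72.8% in AGN. From D6.25 to D6.75 in CD1530, 17 of the 43 genes rose (25.8% of all genes did) and 2 fell (20.1%), with a median of 0.09 (all genes 0.02). In AGN, 11 of the 43 genes rose (24.9% of all genes did) and 3 fell (18.8%), with a median of 0.01 (all genes 0.01). Rises at this step in AGN were thus about as frequent as among all genes. Gins2, a subunit of the active helicase, rose by 0.38 ± 0.06 in CD1530 and 0.37 ± 0.07 in AGN, and the clamp loader gene Rfc2 by 0.31 and 0.26. Pold1, the polymerase of the lagging strand, rose by 0.31 in CD1530, and the cyclin E gene Ccne1 by 0.33 in AGN. Pcna and Tipin, a fork protection factor, fell in both, Pcna at -0.20 and -0.17 and Tipin at -0.15 and -0.25, of which Tipin in CD1530 was not called without CD1530 D6.75 replicate 2 (-0.11, adjusted p = 0.0649). Orc6, a subunit of the origin complex, fell with a log2 change of -0.15 in AGN, a call lost without AGN D6.25 replicate 2 or 3 or AGN D6.75 replicate 1 or 3 (adjusted p up to 0.106).

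From D6.75 to D7.5 in AGN, 25 of the 43 genes rose (14.2% of all genes did) and 1 fell (16.0%), with a median of 0.16. In CD1530, 6 of the 43 genes rose (18.7% of all genes did) and 4 fell (15.5%), with a median of 0.01 (all genes 0.01). Rises at this step in CD1530 were thus no more frequent than among all genes. In AGN the leading rises were Ccne1 at 0.42 ± 0.05, Dut, which removes dUTP, at 0.35 ± 0.05 and Gins2 at 0.31 ± 0.06, and the fall was that of Slbp, which binds histone mRNA, at -0.14 ± 0.04. In CD1530 Dut (0.36 ± 0.05), Ccne1 (0.26 ± 0.05) and Mcm6 (0.18 ± 0.03) rose, and Gins1 (-0.22 ± 0.07), Slbp (-0.18 ± 0.04) and Pcna (-0.18 ± 0.04) fell. Gins1 was not called without CD1530 D7.5 replicate 3 (adjusted p = 0.0617). The CD1530 count at this step, 10 in all, dropped to 2 when the 2 groups were fitted alone.

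From D7.5 to D8.5, 6 of the 43 genes rose (18.8% of all genes did) and 19 fell (17.7%) in CD1530. In AGN, 5 of the 43 genes rose (21.4% of all genes did) and 17 fell (20.6%), and the medians were -0.06 in CD1530 and -0.07 in AGN. With scaling to library size alone, the split in AGN was 2 higher and 29 lower. Ccne2 rose by 0.57 ± 0.07 in CD1530 and 0.57 ± 0.07 in AGN, and Tyms, which makes thymidylate, by 0.44 and 0.36. Dut rose further in CD1530, by 0.38, and Ccne1 in AGN, by 0.19 (0.11, adjusted p = 0.0575, with scaling to library size alone). Ung, which removes uracil from DNA, fell with a log2 change of -0.74 ± 0.04 and -0.48 ± 0.04, and Msh6, a mismatch sensor, at -0.46 and -0.37. Mcm10 fell with a log2 change of -0.33 in CD1530, and Fen1, the flap nuclease of lagging strand synthesis, at -0.38 in AGN, a call that was lost without AGN D8.5 replicate 1 (-0.22, adjusted p = 0.111).

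The second fall came from D8.5 to D10. In CD1530, 0 of the 43 genes rose (27.4% of all genes did) and 42 fell (29.9%), with a median log2 fold change of -0.59. In AGN, 0 of the 43 genes rose (29.9% of all genes did) and 39 fell (29.5%), with a median of -0.58 (all genes -0.04 and -0.01). In CD1530 the deepest falls were Ung at -1.19 ± 0.05 (SE, adjusted p = 4.31e-24), Mcm10 at -1.05 ± 0.05 and Orc1 at -0.90 ± 0.08. In AGN they were Ung at -1.20 ± 0.04 (SE, adjusted p = 1.02e-24), the loading factor Cdc6 at -1.09 ± 0.05 and Msh6 at -1.08 ± 0.04. No gene rose at this step in either condition in edgeR, none at an unadjusted p under 0.05, and none in DESeq2. Rrm1, the large subunit of ribonucleotide reductase, passed in neither direction, at 0.01 ± 0.03 and -0.05 ± 0.03, and Tk1, Rfc2 and E2f1 did not pass in AGN, at -0.14, -0.07 and 0.04. These exceptions depended on the scaling. With scaling to library size alone, Rrm1 was called lower in CD1530 (-0.087, adjusted p = 0.0160) and in AGN (-0.149, adjusted p = 7.38e-05). In AGN, Tk1 (-0.239, adjusted p = 0.00117) and Rfc2 (-0.175, adjusted p = 0.000827) were then also called lower. The lower calls became 43 in CD1530 and 42 in AGN. The AGN calls of Gins3 and Ccne2 (-0.18 and -0.18) were lost without AGN D10 replicate 1 or 2 or AGN D8.5 replicate 2, and also without AGN D8.5 replicate 1 for Gins3 or replicate 3 for Ccne2 (adjusted p up to 0.252 and 0.213).

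Over the whole course from PM to D10, 2 genes rose (43.3% of all genes) and 40 fell (39.9%) in CD1530, with a median of -1.20 and a range of -2.62 to 0.45. In AGN, 2 rose (41.6%) and 39 fell (40.4%), with a median of -1.21 and a range of -2.41 to 0.80. The medians over all genes were 0.04 and 0.00, and both comparisons again share the PM libraries. Ung fell most in both, at -2.62 ± 0.04 and -2.41 ± 0.04. Next came Mcm10 (-2.21 ± 0.05) and Orc1 (-2.21 ± 0.07) in CD1530, and Cdt1 (-2.07 ± 0.05) and Msh6 (-2.02 ± 0.04) in AGN. Ccne2 rose, by 0.45 ± 0.08 and 0.80 ± 0.08. Rrm1 was higher by 0.12 ± 0.03 and 0.07 ± 0.03. With scaling to library size alone its change was 0.00 in CD1530 and turned to -0.08 in AGN, and the AGN call was lost without any 1 PM library, AGN D10 replicate 2 or AGN D10 replicate 3 (adjusted p up to 0.183). That scaling shifted the median log2 change of all genes over this span, with differences of -0.11 in CD1530 and -0.15 in AGN. Dut in CD1530, at 0.01 ± 0.05, and Gins2 and Gins3 in AGN, at -0.05 ± 0.06 and 0.06 ± 0.08, did not pass.

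**Figure D3:**
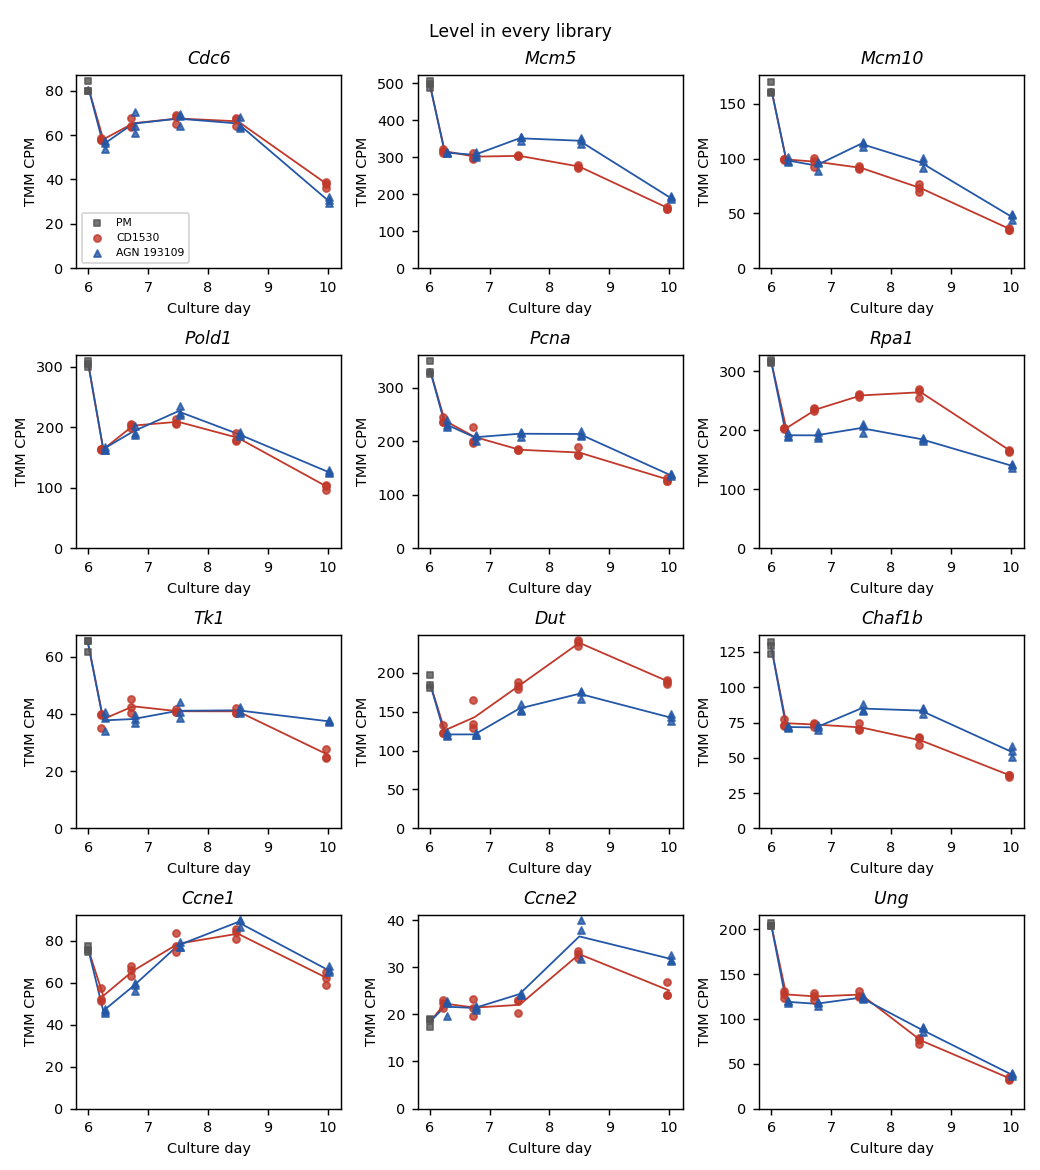
CPM of 12 replication genes in every library against culture day, with PM as grey squares, CD1530 as red circles and AGN as blue triangles, and lines through the group means. Mcm10 and Chaf1b part from D7.5 on, Dut and Rpa1 lie higher in CD1530, and Tk1 lies lower in CD1530 at D10, at 25.8 against 37.4 CPM.

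By role, the loading factors split at D10. Cdc6 was at 79.9, 79.9 and 84.5 CPM in the PM libraries, 64.0, 67.0 and 67.5 in CD1530 and 68.1, 64.2 and 63.4 in AGN at D8.5, and, at D10, 38.0, 36.0 and 38.8 in CD1530 and 30.8, 29.3 and 31.9 in AGN. The conditions did not overlap at D10, with CD1530 higher by 0.30 ± 0.06 (SE, adjusted p = 3.10e-05), while at the 4 earlier times Cdc6 did not pass (log2 fold changes of 0.06, 0.01, 0.00 and 0.02). Orc1 went the other way: at D10 it was at 14.0, 13.0 and 13.9 CPM in CD1530 and 18.3, 15.7 and 16.3 in AGN, -0.29 ± 0.09 (SE, adjusted p = 0.00498), with no overlap, although without AGN D10 replicate 1 the adjusted p was 0.0527. Orc6 (0.06 ± 0.06) and Cdt1 (0.08 ± 0.05) did not pass.

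Of the helicase genes, 4 of 6 were lower in CD1530 at D10. Mcm5 was at 488, 499 and 507 CPM in the PM libraries, 271, 275 and 279 in CD1530 and 348, 352 and 336 in AGN at D8.5, and, at D10, 159, 159 and 165 in CD1530 and 196, 188 and 194 in AGN. The conditions did not overlap at D8.5 or at D10, and the differences were -0.33 ± 0.03 (SE, adjusted p = 9.18e-12) and -0.26 ± 0.03 (SE, adjusted p = 6.84e-09). Mcm6 differed by a log2 change of -0.19 ± 0.03, Mcm2 of -0.10 ± 0.04 and Mcm7 of -0.10 ± 0.03, and Mcm3 (-0.01 ± 0.03) and Mcm4 (-0.05 ± 0.03) did not pass. The calls of Mcm2 and Mcm7 were lost without 1 library (Mcm2 without CD1530 replicate 2 or 3 or AGN replicate 1 or 3, Mcm7 without CD1530 replicate 2 or 3 or AGN replicate 1), with adjusted p up to 0.213 and 0.110.

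Among the genes that activate the helicase, Mcm10 differed most between conditions at D10. Mcm10 was at 161, 160.0 and 170.0 CPM in the PM libraries, 72.7, 69.8 and 76.4 in CD1530 and 97.4, 100.4 and 91.6 in AGN at D8.5, and, at D10, 34.8, 34.7 and 36.5 in CD1530 and 48.6, 44.0 and 49.7 in AGN. No library of one condition overlapped the other at either time, and the log2 fold changes were -0.40 ± 0.05 (SE, adjusted p = 1.32e-09) and -0.42 ± 0.05 (SE, adjusted p = 6.48e-09). Gins3 and Gins2 were also lower in CD1530 at D10, at -0.35 ± 0.09 and -0.27 ± 0.07, with no overlap of the libraries (30.2, 31.2 and 30.2 against 39.3, 33.3 and 37.4 CPM for Gins2). Gins4 was lower with a log2 difference of -0.16 ± 0.06 and Cdc45, a core part of the active helicase, was higher by 0.14 ± 0.06, both calls that were lost without 1 library (Gins4 without CD1530 replicate 1 or 2 or AGN replicate 2 or 3, Cdc45 without CD1530 replicate 1 or any AGN replicate), with adjusted p up to 0.0747 and 0.199. Gins1 was at -0.01 ± 0.08 and did not pass.

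Pold1, the catalytic subunit of polymerase delta, was at 299.7, 304 and 309 CPM at PM, 178, 190.4 and 179.6 in CD1530 and 186, 193 and 188 in AGN at D8.5, where the libraries overlapped, and, at D10, 102, 104 and 96.9 in CD1530 and 130.1, 126 and 124 in AGN, where they did not (-0.32 ± 0.04, adjusted p = 2.34e-09). Prim1, the catalytic subunit of primase, was likewise lower in CD1530, at -0.23 ± 0.06, whereas Pola1 (-0.07 ± 0.06) and Pole (-0.08 ± 0.10), the catalytic subunits of polymerases alpha and epsilon, did not pass. Pcna was at 325, 350.4 and 329 CPM in the PM libraries, 189, 174 and 173 in CD1530 and 211, 219 and 211 in AGN at D8.5, and, at D10, 125, 132 and 126 in CD1530 and 139, 136 and 139 in AGN. CD1530 was below AGN in all libraries at both times, at -0.26 ± 0.04 (SE, adjusted p = 2.97e-06) and -0.11 ± 0.04 (SE, adjusted p = 0.0370), and the D10 call was lost without CD1530 replicate 1 or 3 or AGN replicate 1 or 3 (adjusted p up to 0.122). Of the 4 clamp loader genes among the 43 none was called at D10, whereas the large subunit Rfc1, outside the 43 and named after its values were seen, was lower in CD1530 (-0.32 ± 0.05, adjusted p = 3.97e-07). Rfc3, the most shifted, was at 35.8, 35.3 and 34.7 CPM in CD1530 and 31.8, 32.9 and 30.7 in AGN. These did not overlap, with an adjusted p of 0.0571 (0.15 ± 0.07), and Rfc4, Rfc5 and Rfc2 were at 0.15, 0.08 and -0.08. Their unadjusted p-values in edgeR were 0.0272, 0.0494, 0.0820 and 0.0819, and DESeq2 called none of them. With scaling to library size alone, Rfc3, Rfc4 and Rfc5 were called higher in CD1530 (adjusted p = 0.0172, 0.0400 and 0.0303).

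Rpa1 and Rpa2, subunits of the single-strand binding complex, differed between conditions in opposite directions. Rpa1 was at 315, 319 and 314 CPM at PM, 267, 270.4 and 255 in CD1530 and 182, 187 and 185 in AGN at D8.5, and, at D10, 167, 164 and 163 in CD1530 and 141, 137 and 143 in AGN, without overlap at either time. Its log2 fold change between conditions was 0.30 at D6.75, 0.35 at D7.5, 0.52 ± 0.03 at D8.5 and 0.23 ± 0.03 (SE, adjusted p = 2.05e-07) at D10. Rpa2 was lower in CD1530, at -0.27 ± 0.05 at D8.5 and -0.14 ± 0.06 at D10, the latter not called without CD1530 replicate 1 or 3 or AGN replicate 1 or 3 (adjusted p up to 0.260). Lig1, the ligase of the lagging strand, was at -0.09 ± 0.04, a call lost without any CD1530 library or AGN replicate 1 (adjusted p up to 0.279), and Fen1 at 0.13 ± 0.13 did not pass.

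Among the genes of nucleotide supply, Dut was higher and Tk1 lower in CD1530 at D10. Dut was at 184, 197 and 180.5 CPM in the PM libraries, 242, 234 and 239 in CD1530 and 177, 175 and 167 in AGN at D8.5, and, at D10, 191, 188 and 185 in CD1530 and 144, 138 and 147 in AGN. CD1530 lay above AGN in all libraries at D8.5 and D10, by 0.46 ± 0.05 (SE, adjusted p = 2.88e-09) and 0.40 ± 0.05 (SE, adjusted p = 8.58e-08), and at D10 its CD1530 libraries were within the range of PM. Tk1, which salvages thymidine, was at 61.7, 65.6 and 65.4 CPM at PM and, at D8.5, 42.0, 40.4 and 40.2 in CD1530 and 41.1, 42.4 and 40.2 in AGN, which overlapped. At D10 it was at 25.0, 24.5 and 27.9 CPM in CD1530 and 37.4, 37.9 and 37.0 in AGN, with no overlap and a difference of -0.54 ± 0.07 (SE, adjusted p = 5.88e-09). The subunits of ribonucleotide reductase and Tyms did not pass at D10: Rrm1 was at 0.05 ± 0.03, Rrm2 at -0.02 ± 0.03 and Tyms at -0.04 ± 0.05. Rrm1 also changed little over the course, from 259.8, 258 and 258 CPM at PM to 275, 287 and 279 in CD1530 at D10 and 270.0, 275 and 271 in AGN at D10.

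Of the 2 subunits of the chromatin assembly factor measured here, Chaf1b was lower in CD1530 at D10. Chaf1b was at 124, 129 and 132 CPM at PM, 63.7, 64.4 and 58.9 in CD1530 and 84.3, 85.0 and 81.2 in AGN at D8.5, and, at D10, 36.4, 38.0 and 37.8 in CD1530 and 58.2, 50.9 and 54.6 in AGN, with no overlap at either time. The differences were -0.42 ± 0.04 (SE, adjusted p = 3.10e-10) and -0.55 ± 0.05 (SE, adjusted p = 2.66e-12), while its partner Chaf1a was at 0.04 ± 0.04 and did not pass. Ung was at 204, 207 and 203 CPM at PM and 33.4, 31.4 and 34.8 in CD1530 and 40.1, 36.4 and 38.9 in AGN at D10, lower in CD1530 with a log2 difference of -0.21 ± 0.05. Msh6 was at 685, 669.7 and 689 CPM at PM and, at D10, 196, 192 and 193 in CD1530 and 164, 176 and 164 in AGN, higher in CD1530 by 0.20 ± 0.04. Slbp (0.06 ± 0.05) and Tipin (-0.09 ± 0.05) did not pass.

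Of the genes that control entry into S phase, Ccne2 and E2f1 were lower in CD1530 at D10. Ccne2 was at 18.9, 17.2 and 18.9 CPM at PM, 33.5, 32.9 and 32.0 in CD1530 and 31.8, 38.0 and 40.0 in AGN at D8.5, and, at D10, 27.0, 24.2 and 24.1 in CD1530 and 31.6, 31.4 and 32.6 in AGN, where the libraries no longer overlapped (-0.34 ± 0.07, adjusted p = 0.000176). E2f1 was at 83.8, 83.5 and 89.7 CPM at PM, 56.0, 55.7 and 56.7 in CD1530 and 50.7, 46.8 and 44.6 in AGN at D8.5, and, at D10, 38.2, 39.7 and 39.7 in CD1530 and 49.8, 48.8 and 47.8 in AGN. CD1530 lay above AGN in every library at D8.5, by 0.24 ± 0.05 (SE, adjusted p = 0.000246), and below it in every library at D10, at -0.32 ± 0.06 (SE, adjusted p = 6.67e-06). Ccne1 was at 74.8, 77.5 and 75.6 CPM at PM and, at D6.25, 57.5, 51.5 and 52.3 in CD1530 and 45.4, 47.7 and 46.7 in AGN. At D8.5 it was at 80.8, 85.4 and 84.1 CPM in CD1530 and 90.0, 90.1 and 86.8 in AGN, above PM in every library of both. At D10 it was at 62.5, 65.0 and 58.8 CPM and 65.0, 67.8 and 65.9 CPM, below PM in every library, and the conditions overlapped (-0.09 ± 0.05).

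The contrasts between conditions ask whether and when the ligands changed these genes. At D6.25, 1 gene was called higher in CD1530 (1.23% of all genes) and 0 lower (0.695%), with a median of 0.03. The gene was Ccne1, at 57.5, 51.5 and 52.3 CPM against 45.4, 47.7 and 46.7 (0.20 ± 0.05, adjusted p = 0.0120), and the call did not hold without replicate 1 of CD1530 or replicate 1 or 3 of AGN (adjusted p up to 0.177). At D6.75, 9 of the 43 genes were called higher in CD1530 (7.94% of all genes) and 1 lower (10.0%), with a median of 0.06. Rpa1 (0.30 ± 0.03), Dut (0.24 ± 0.05) and Gins1 (0.23 ± 0.07) were the highest and Mcm6 (-0.09 ± 0.03) the gene called lower. The count of 10 was 6 without AGN D6.75 replicate 1 and 1 when the 2 groups were fitted alone. For several genes CD1530 D6.75 replicate 1 lay apart from replicates 2 and 3. Its level was 71.0 CPM against 104 and 110 for Pole, and 165 against 135 and 129 for Dut. For Msh6 it was 413 against 461 and 463, while for others, such as Rpa1 (237 against 233 and 235), the 3 libraries lay close. What set this library apart was not tested. Gins1 and Mcm6 were not called without AGN D6.75 replicate 1, nor Gins1 without CD1530 replicate 3 or Mcm6 without CD1530 replicate 1 or 2 or AGN replicate 3 (adjusted p up to 0.101 and 0.110). No gene was called lower at D6.25 in edgeR or in DESeq2, and 1 was lower at an unadjusted p under 0.05.

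From D7.5 on, more genes were lower than higher in CD1530. At D7.5, 3 of the 43 genes were called higher in CD1530 (15.2% of all genes) and 16 lower (11.8%), with a median of -0.08 against 0.01 over all genes. Rpa1 (0.35 ± 0.03), Dut (0.25 ± 0.05) and Cdc45 (0.14 ± 0.05) were higher, and Mcm10 (-0.31 ± 0.04), Gins2 (-0.29 ± 0.06) and Orc1 (-0.25 ± 0.07) were lowest. The 16 lower calls became 9 without AGN D7.5 replicate 3 and 10 without CD1530 D7.5 replicate 2. Orc1 lost its call without CD1530 D7.5 replicate 1 (adjusted p = 0.0555), and Cdc45 lost its call without CD1530 replicate 1 or 3 or AGN replicate 1 or 3 (up to 0.108). At D8.5, 4 of the 43 genes were called higher in CD1530 (20.4% of all genes) and 15 lower (19.6%), with a median of -0.05 against 0.00. The extremes were Rpa1 (0.52 ± 0.03), Dut (0.46 ± 0.05) and E2f1 (0.24 ± 0.05) above, and Chaf1b (-0.42 ± 0.04), Mcm10 (-0.40 ± 0.05) and Mcm5 (-0.33 ± 0.03) below. All 6 helicase genes Mcm2 to Mcm7 were called lower at D8.5, also without any 1 library, and 4 of them at D10. At D10, 5 of the 43 genes were called higher in CD1530 (22.7% of all genes) and 19 lower (24.0%), with a median of -0.08 against -0.02 and a range of -0.55 to 0.40. With scaling to library size alone the D10 split was 9 higher and 13 lower. Mcm2, Mcm7, Gins4, Pcna, Rpa2 and Lig1 were no longer called (adjusted p between 0.102 and 0.212), and Rrm1, Rfc3, Rfc4 and Rfc5 became higher calls. Cdc45 was not called in DESeq2 (adjusted p = 0.102). Leaving out 1 library at a time, 16 of the 24 genes kept their call throughout, and the other 8 are those named above as losing theirs.

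**Figure D4:**
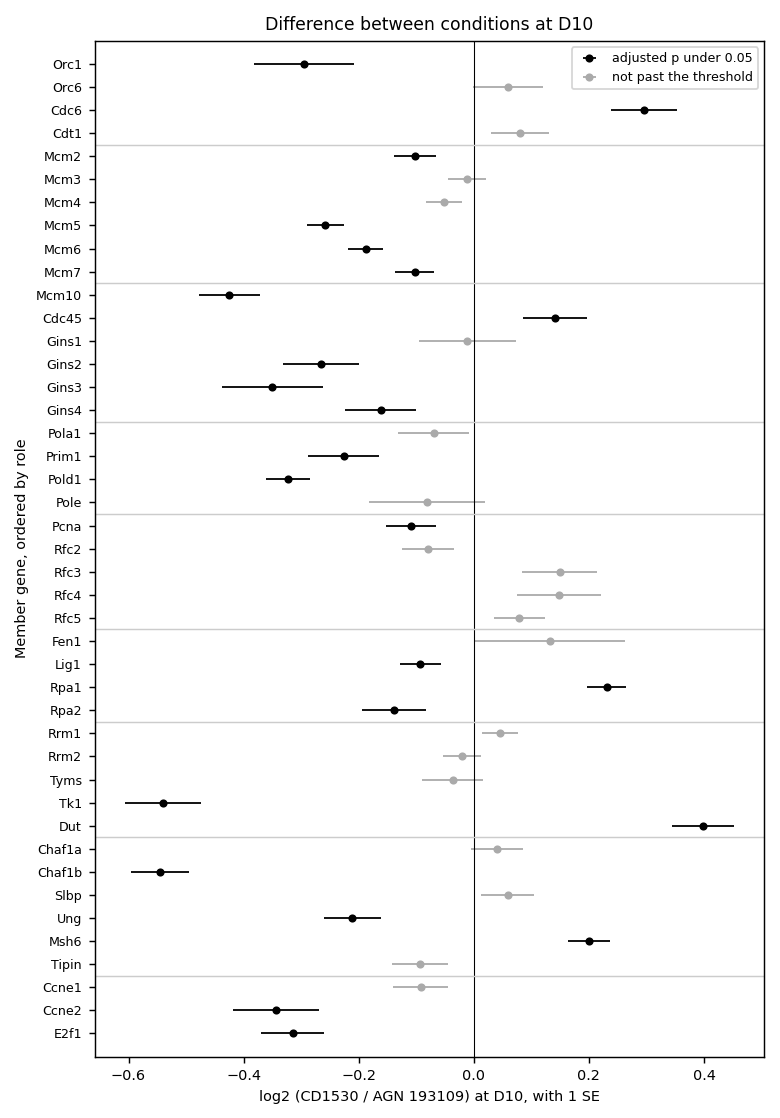
Log2 fold change of CD1530 over AGN at D10 for each of the 43 genes, ordered by role, with bars of 1 SE from edgeR (black, adjusted p under 0.05; grey, not past it; 3 libraries a condition). Chaf1b (-0.55) and Tk1 (-0.54) lie farthest to the left and Dut (0.40) farthest to the right.

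Followed over the 5 times, 22 of the 43 genes were called lower in CD1530 at 1 or more times and never higher (30.4% of all genes were), 8 higher and never lower (28.5%), 3 in both directions (1284 of all 17120 genes were) and 10 at no time (33.6%). The 8 were Orc6, Cdc6, Cdc45, Rpa1, Dut, Msh6, Tipin and Ccne1. Gins1, Rrm2 and E2f1 were called in both directions, and each call of Gins1 was lost without at least 1 library. Those never called were Pola1, Pole, Rfc2, Rfc3, Rfc4, Rfc5, Fen1, Rrm1, Tyms and Slbp, which hold the 4 clamp loader genes among the 43 and 2 of the catalytic polymerase subunits. The times share no library, and each contrast compares 3 libraries with 3, with the spread estimated in 1 fit over all 33 libraries.

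Whether a step itself differed between conditions was tested by its interaction term. Over all 5 times together, the difference between conditions varied for 31 of the 43 genes (background 48.8% of all genes), and the count lay between 25 and 34 when any 1 library was left out. From D6.25 to D6.75, 2 genes moved up more in CD1530 (2.29%), Rpa1 (0.21 ± 0.05) and Rrm2 (0.15 ± 0.05), and 0 down (2.54%), with none down at an unadjusted p under 0.05 in edgeR and none in DESeq2. Rrm2 lost its call without any 1 of 8 of the 12 libraries (adjusted p up to 0.144): CD1530 D6.25 replicates 2 and 3, AGN D6.25 replicates 1 and 3, CD1530 D6.75 replicate 3 and all 3 AGN D6.75 replicates. The count was 4 without CD1530 D6.75 replicate 1. From D6.75 to D7.5, 0 genes moved up more in CD1530 (5.60%) and 12 moved down more (3.41%), with a median of -0.14 against 0.03 over all genes. None moved up more at an unadjusted p under 0.05 in edgeR, and none was called as moving up more in DESeq2. The leading genes were Gins1 (-0.43 ± 0.10, adjusted p = 0.00218), Gins2 (-0.36 ± 0.09) and Mcm10 (-0.36 ± 0.06), and the others were Cdt1, Mcm5, Prim1, Pold1, Pcna, Rfc3, Rpa2, Rrm2 and Chaf1b. Of these, Cdt1 lost its call without any 1 of 8 of the 12 libraries (adjusted p up to 0.142): CD1530 D6.75 replicate 1, AGN D6.75 replicates 1 and 2, all 3 CD1530 D7.5 replicates and AGN D7.5 replicates 1 and 3. Rfc3 did so without 8 (up to 0.143), the same ones except AGN D6.75 replicate 3 in place of replicate 1. Prim1 lost its call without CD1530 D6.75 replicate 2, AGN D6.75 replicate 1 or 3, CD1530 D7.5 replicate 1 or 3 or AGN D7.5 replicate 3 (up to 0.0719). Rpa2 lost it without CD1530 D6.75 replicate 1, AGN D6.75 replicate 1 or CD1530 D7.5 replicate 2 (up to 0.0728), and Pold1 without AGN D6.75 replicate 2 or AGN D7.5 replicate 3 (up to 0.0709). Gins1 was at 32.1, 29.1 and 32.6 and then 26.6, 28.2 and 25.6 CPM in CD1530, and at 25.0, 28.4 and 26.5 and then 29.4, 30.7 and 32.3 in AGN. When these 4 groups were fitted alone the count was 4.

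From D7.5 to D8.5, 3 genes moved up more in CD1530 (4.92%) and 3 down more (6.59%), and with scaling to library size alone the split was 6 and 1. They were Fen1 (0.46 ± 0.15), Rfc4 (0.28 ± 0.09) and Rpa1 (0.17 ± 0.05) above, and Ung (-0.26 ± 0.06), Rrm2 (-0.17 ± 0.04) and Mcm6 (-0.15 ± 0.04) below. Fen1 was not called without CD1530 D7.5 replicate 1 or 3, AGN D7.5 replicate 1 or 2, CD1530 D8.5 replicate 2 or AGN D8.5 replicate 1 (adjusted p up to 0.241). Rfc4 was not called without CD1530 D7.5 replicate 1 or 2, AGN D7.5 replicate 1 or 3, CD1530 D8.5 replicate 1 or 2 or AGN D8.5 replicate 1 or 3 (up to 0.116), nor Mcm6 without AGN D7.5 replicate 2 (0.0576). From D8.5 to D10, 5 genes moved up more, that is fell less, in CD1530 (12.7%), and 5 fell more (14.1%), with a median of 0.01 against -0.02. E2f1 (-0.55 ± 0.08, adjusted p = 2.55e-07) and Tk1 (-0.53 ± 0.09, adjusted p = 1.49e-05) led the genes that fell more in CD1530, followed by Prim1 (-0.30 ± 0.08), Rpa1 (-0.28) and Pold1 (-0.27). Those that fell less were Cdc6 (0.28 ± 0.07, adjusted p = 0.00432), Cdt1 (0.23 ± 0.07), Msh6 (0.21 ± 0.05), Rrm2 (0.18) and Mcm4 (0.13), of which Mcm4 was not called without CD1530 D10 replicate 1 or AGN D10 replicate 3 (adjusted p up to 0.0685). For comparison, the step values of Cdc6 were -0.81 in CD1530 and -1.09 in AGN, and those of Tk1 -0.67 and -0.14.

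Further genes of the same pathways, outside the 43, were counted from lists. Of all genes, 22.7% were higher and 24.0% lower in CD1530 at D10, and from D8.5 to D10 27.4% rose and 29.9% fell in CD1530 and 29.9% rose and 29.5% fell in AGN. Of 10 further genes of origin recognition and helicase loading, 1 was higher and 4 lower in CD1530 at D10 (median -0.09), led by Cdc7 (the kinase that fires origins, -0.31) and Dbf4 (its activating subunit, -0.29). Between D8.5 and D10, 10 of them fell in CD1530 and 9 in AGN, and 0 rose in either (medians -0.47 and -0.36). Of 14 genes of origin firing, the fork and its checkpoint, 1 was higher and 8 lower in CD1530 at D10 (median -0.20), led by Top2a (a topoisomerase, -0.42) and Chtf18 (part of an alternative clamp loader, -0.41). Over the last step, 13 of them fell in CD1530 and 12 in AGN, and 0 rose in either (medians -0.63 and -0.47). Of 14 further polymerase, primase and RNA primer genes, 3 were higher and 7 lower in CD1530 at D10 (median -0.19), led by Pclaf (a Pcna partner, -0.49) and Dna2 (a flap nuclease and helicase, 0.44). Between D8.5 and D10, 13 of them fell in CD1530 and 12 in AGN, and 0 and 1 rose (medians -0.52 and -0.40). Of 12 further nucleotide synthesis genes, 4 were higher and 5 lower in CD1530 at D10 (median -0.05), led by Rrm2b (the p53-induced small subunit of ribonucleotide reductase, 0.48) and Dctd (dCMP deaminase, 0.35). Over the last step, 8 of them fell in CD1530 and 8 in AGN, and 2 and 0 rose (medians -0.46 and -0.51).

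The shares of all genes given above, 22.7% higher and 24.0% lower in CD1530 at D10, apply to the next lists too. Of 8 genes that rebuild chromatin behind the fork, 1 was higher and 4 lower in CD1530 at D10 (median -0.10), led by Asf1b (a histone chaperone, -0.46) and Nasp (a histone chaperone, -0.25). Between D8.5 and D10, 7 of them fell in CD1530 and 8 in AGN, and 0 rose in either (medians -0.49 and -0.38). Of 19 genes of E2F, RB and CDK2 control, 5 were higher and 10 lower in CD1530 at D10 (median -0.12), led by Cdkn1a (the CDK inhibitor p21, 0.84) and Cdkn1b (the CDK inhibitor p27, -0.84). Over the last step, 9 of them fell in CD1530 and 9 in AGN, and 4 and 5 rose (medians -0.13 and -0.12). Of 11 genes of mismatch and base excision repair, 7 were lower in CD1530 at D10 (median -0.26), led by Mutyh (a glycosylase for mispaired adenine, -0.93) and Parp1 (a sensor of strand breaks, -0.40). Between D8.5 and D10, 9 of them fell in CD1530 and 8 in AGN, and 0 and 1 rose (medians -0.52 and -0.56). Cdkn1a and Cdkn1b, which both restrain CDK2, differed between conditions in opposite directions.

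A list of mitosis genes, the other large block of cell cycle transcripts, was counted beside them. Of all genes, 24.0% were lower in CD1530 at D10. From D8.5 to D10, 27.4% of all genes rose and 29.9% fell in CD1530, and 29.9% rose and 29.5% fell in AGN. From D8.5 to D10, 18 of 19 mitosis genes fell and 0 rose in CD1530 (median -0.44), and in AGN 3 rose and 6 fell (median -0.03), beside the 42 and 39 of 43 replication genes that fell (medians -0.59 and -0.58). Between conditions at D10, 19 of 19 mitosis genes were lower in CD1530 (median -0.40), led by Nusap1 (-0.62) and Birc5 (-0.56), which act in the spindle and at the chromosomes, against 19 of 43 replication genes (median -0.08). The interaction for the step from D8.5 to D10 was called for 17 of the 19, all lower, and for 5 lower and 5 higher of the 43. Of all genes it was called lower for 14.1% and higher for 12.7%, so the counts for the 43 were near those shares. Summed over the 19 genes, the level was 3228.5 to 3255.3 CPM at PM, 2632.4 to 2684.3 and 2666.3 to 2696.2 at D8.5, and 1930.3 to 1999.1 in CD1530 and 2546.8 to 2606.8 in AGN at D10, or 60.8% and 79.6% of PM. The replication genes stood at 43.9% and 45.5% of PM at the same time, and whether the lists differ was not tested.

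**Figure D5:**
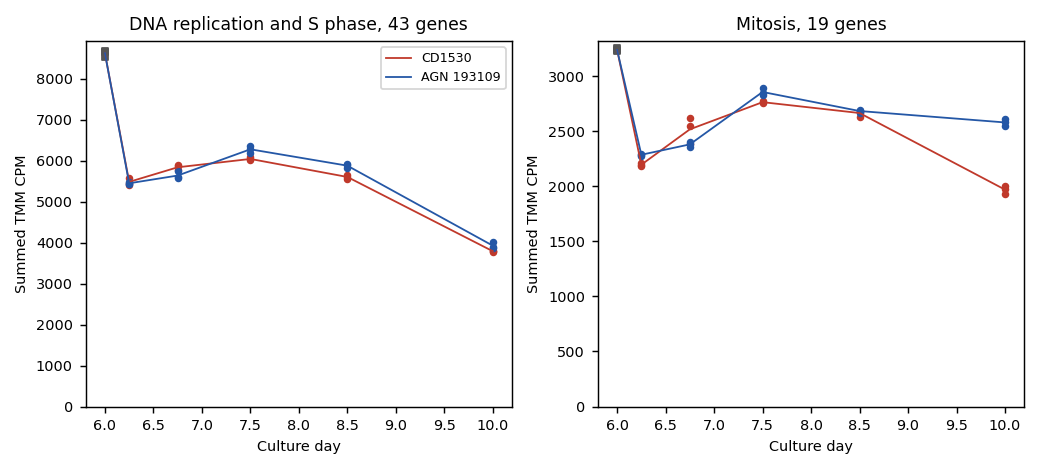
CPM summed over the 43 replication genes (left) and over 19 mitosis genes (right) against culture day, with 1 point per library (PM grey squares, CD1530 red, AGN blue) and lines through the group means; both axes start at 0. At D10 the replication sums are 3774.1 to 3797.6 and 3869.7 to 4005.5 CPM, the mitosis sums 1930.3 to 1999.1 and 2546.8 to 2606.8.

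Levels of cell type markers also differed between times and conditions. The summed level of 9 paraxial mesoderm markers was 176.5 to 188.7 CPM at PM, with 8 of 9 at 1 CPM or more, and 106.8 to 113.1 and 105.6 to 110.7 with 4 of 9 at D10. It was not lower than at PM in all groups, at 189.6 to 198.9 CPM in CD1530 and 161.1 to 174.0 in AGN at D8.5. Over 9 tendon markers it was 1742.6 to 2193.3 CPM at PM and 21460.0 to 22113.2 and 29080.5 to 30815.5 at D10, and over 6 cartilage markers 22.7 to 26.3, 749.5 to 763.3 and 3979.8 to 4166.2, with 628.6 to 658.4 in CD1530 and 1375.8 to 1417.5 in AGN at D8.5. Over 8 pluripotency markers it was 2810.1 to 2856.0 CPM at PM, 267.7 to 272.5 in CD1530 and 439.4 to 459.2 in AGN at D10. Neural markers (8 genes) summed to 92.4 to 98.0 CPM in CD1530 and 33.9 to 37.0 in AGN at D10, where Neurog2 was at 0. Endothelial markers (6) summed to 155.2 to 169.8 and 143.4 to 152.8 at D10 but to 426.1 to 446.6 and 259.2 to 285.9 at D7.5, and endoderm markers (6) to 130.8 to 134.7 and 280.2 to 285.8 at D10 and 364.3 to 387.8 and 570.2 to 590.3 at D7.5. Muscle (4) and blood (4) markers stayed at or below 5.30 and 5.60 CPM in sum at D10, with Myod1 at 0 in CD1530. Each sum weighs the most abundant genes of its list most, and does not show how single markers such as Scx changed. The part of such cell types in the changes of the replication genes was not tested.

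Exons of 13 of the 43 genes overlap a protein-coding gene on the other strand in GENCODE M21 (GRCm38): Cdc45, Chaf1a, Msh6, Rfc4, Rfc2, Fen1, Tk1, Ccne2, Rfc5, Mcm7, Orc6, Gins2 and Lig1. The library kit does not mark strand, so reads from such an overlap may be split or dropped, and their values are uncertain to that extent. Positions of the genes named most, all protein-coding, are Chaf1b at chromosome 16, 93883901 to 93906115, plus strand, Tk1 at chromosome 11, 117815526 to 117826092, minus strand, Mcm10 at chromosome 2, 4989714 to 5012791, minus strand, Dut at chromosome 2, 125247190 to 125258608, plus strand, Rpa1 at chromosome 11, 75298166 to 75348324, minus strand, Cdc6 at chromosome 11, 98907801 to 98923940, plus strand, E2f1 at chromosome 2, 154559407 to 154569892, minus strand, Ung at chromosome 5, 114130386 to 114139323, plus strand, Mcm5 at chromosome 8, 75109569 to 75128439, plus strand and Pcna at chromosome 2, 132249162 to 132253314, minus strand.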

How the data were processed

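RNA was sequenced from 33 libraries, 3 in each of 11 groups, and 1 table of whole-number read counts per gene was deposited. The labels and the study's methods name STAR for alignment and featureCounts for counting, on GRCm38, with versions not given in the sources used here, and the strand setting of the counting is not given either. The authors deposited counts without normalization, and the table holds 17120 genes. Gene IDs were matched to GENCODE M21, which paired 17117 of them with a position.

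The 43 genes were taken by symbol, and they and all gene lists were chosen with earlier results of these data known. Counts were tested with edgeR 4.0.16 (TMM scaling, filterByExpr, which removed 0 genes, a robust quasi-likelihood fit of 11 group means over all 33 libraries, two-sided) in R 4.3.3 with limma 3.58.1, and p-values were adjusted by Benjamini-Hochberg over all 17120 genes within each of 22 contrasts. The biological coefficient of variation was 4.68%. Calls were made at an adjusted p under 0.05, and ± gives the SE of a log2 fold change or, where stated, the SD. For each contrast, up to 3 called genes in either direction with the largest log2 fold change are named, and per-library levels are given for the gene of each role that differed most at D10 and for a few core genes. Interaction terms compare the same step between conditions. Tables and figures were made in Python 3.11.15 with pandas 2.3.3. The tests were also run on simulated counts with changes put in at D10 of CD1530 alone. That setting is simpler than these data, and its outcome is not given here.

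Alternatives were DESeq2 1.42.0 and its size factors, scaling to library size alone, other filters on low counts, a fit that is not robust, the likelihood ratio test, a replicate block, fits of the compared groups alone, and leaving out each library. Promoters came from RefSeq (GRCm38.p6) by symbol. Total counts were 17116084 to 38120841 per library. Counting error was above the biological coefficient of variation in at least 1 library for 7 of the 43 genes, and was 9.95% at the lowest count, 101 for Fen1.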

Additional observations from a re-analysis of the deposited data

Results flagged for a closer look

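The results given here differed between the conditions by a test of the difference itself, the interaction term of condition with a step in edgeR. It passed for 2 of the 43 genes from D6.25 to D6.75, 12 from D6.75 to D7.5, 6 from D7.5 to D8.5 and 10 from D8.5 to D10, and for 31 over all 5 times together. Of all genes, 2.29% moved up more and 2.54% down more in CD1530 at the first step, and 5.60% and 3.41% at the next. The shares were 4.92% and 6.59% from D7.5 to D8.5 and 12.7% and 14.1% from D8.5 to D10. Over all 5 times 48.8% of all genes passed. From D6.25 to D6.75 the count among the 43 was 1 without CD1530 D6.25 replicate 2 or 3, AGN D6.25 replicate 1 or 3, or any AGN D6.75 library, and 4 without CD1530 D6.75 replicate 1.

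From D8.5 to D10 the 3 genes that fell less in CD1530 by the widest margin were Cdc6 (log2 0.28), Cdt1 (0.23) and Msh6 (0.21), and the 3 whose change was lower in CD1530 by the widest margin were E2f1 (-0.55), Tk1 (-0.53) and Prim1 (-0.30). Tk1 and Msh6 overlap exons of a gene on the other strand, and the part of those reads was not tested.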

How the results depend on the processing

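The counts of called genes among the 43 were recomputed under each alternative for 22 comparisons, and 357 of 378 values stayed within 1.5 times the reported count. Split by direction, 627 counts stayed within 1.5 times and 51 did not, and of the medians 157 moved by less than their spread and 35 by more. When only the compared groups were fitted, which leaves fewer libraries to estimate the spread, the counts were 1 in place of 10 between conditions at D6.75, 9 in place of 19 for CD1530 from D6.25 to D6.75, and 2 in place of 10 from D6.75 to D7.5. In the same fits the interaction counts were 0 in place of 2, 4 in place of 12, 10 in place of 6 and 17 in place of 10, in order of the 4 steps, and the cause was not tested. The likelihood ratio test gave 1 in place of 2 for the first interaction. The counts with 1 library left out were 0 to 1 between conditions at D6.25, 6 to 13 at D6.75, 11 to 18 at D7.5 and 1 to 4 for the interaction from D6.25 to D6.75. The lowest counts came without AGN D6.75 replicate 1 at D6.75 and without AGN D7.5 replicate 3 at D7.5.

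Of the values of named genes and promoter motifs, 1485 kept their direction and their side of the threshold, 72 kept the direction but no longer passed, and 1 that had passed turned. That was Rrm1 from PM to D10 in AGN, at -0.079 (adjusted p = 0.0209) with scaling to library size alone. Under that scaling, values that had not passed also turned and became lower calls. Rrm1 from D8.5 to D10 in CD1530 went from 0.006 to -0.087 (adjusted p = 0.0160). Mcm6 from D7.5 to D8.5 in AGN went from 0.017 to -0.070 (adjusted p = 0.0470). The 7-letter E2F forms moved 1 motif share. Fits with the replicate number as a replicate block changed no count by more than 1, for example 18 in place of 19 at D7.5 and 30 in place of 31 over all 5 times. Deviations of the 165 pairs of libraries that share a number correlated between -0.17 and 0.14, with a median of 0.00 and 2 above 0.1, so the numbers were not treated as pairing the samples.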
